A study of Homo sapiens with 6 samples.

Results

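Dense clusters of open chromatin were examined in H1155, an established human lung carcinoma cell line. A dense cluster was a stretch of a chromosome holding at least 8 open regions that every library shared, each lying no more than 12.5 kb from the next. There were 347 such clusters among 34286 chains of shared regions of any length, or 1.01% of chains. They held 3555 of the 56679 shared regions, or 6.27%. The clusters were found by merging the peaks of the 6 libraries on chromosomes 1 to 22 and X where peaks overlapped by at least 1 bp, and by keeping the merged regions with a peak in all 6. The members were thus chosen by the presence of a peak in every library and by the distances between regions, and these properties are given as descriptions only. A region that opened or closed fully between the groups could not enter a cluster, and such regions inside the cluster spans are counted separately at the end.

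The study compared 3 control libraries with 3 libraries of H1155 cells that express a chimera, each prepared by the Omni-ATAC protocol, and the labels describe each trio as biological replicates. The titles of the chimera libraries carry the letters TA. Neither TA nor the chimera is explained in the labels, and they do not say what the control cells carried, how expression was driven, or whether a line grew from 1 clone. Whether the replicates were separate cultures is not stated either, so p-values measure the spread between these 6 libraries, which may be partly technical.

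ATAC-seq maps accessible chromatin with a transposase, which inserts sequencing adapters where DNA is free of nucleosomes. Accessible regions include promoters, enhancers and sites bound by insulator proteins. Joining neighbouring regions by distance is the step used to define super-enhancers, long groups of enhancers near genes of cell identity, but it also gathers regions wherever active genes lie close together. Accessibility alone does not separate these kinds of element.

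Each library came with its own peak list of 85745 to 109339 peaks, and each peak carried the authors' fold over local background and a −log10 p. The number of fragments stacked at a peak's summit, the summit pileup, was recovered from both values. The libraries differed in depth, with a median pileup over shared regions of 41 to 65 in the controls and 48 to 56 in the chimera libraries. Every level is therefore given as a multiple of the median over all 56679 shared regions of the same library. The level of a cluster is the sum of the levels of its shared regions. The labels name the build GRCh38, but peaks ran past the end of the GRCh38 chromosome on 14 of 23 chromosomes and past the end of the GRCh37 chromosome on 0 of 23. Positions are printed as deposited, counted from 1.

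Gene names could be attached to a few clusters only. The available annotation is on GRCh38.p14, so a cluster was linked to genes where the coordinates agreed locally. That required a stretch of 5 Mb with at least 20 protein-coding gene starts, of which at least 40% had a peak summit within 500 bp in every list. This held in 18 of 417 stretches tested, with shares of 41.9% to 90.5%, against a median of 2.33% in the other stretches. The 18 stretches held 10 of the 347 clusters. None of the 24 marker genes listed for the neuroendocrine, epithelial and mesenchymal states and for YAP and TEAD targets lay in them, so the cell type could not be checked inside the clusters.

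The 10 linked clusters contained 98 shared regions, and 16 of those lay within 500 bp of a protein-coding gene start. The other 82 lay away from every protein-coding start in the table, which is not complete, and a few of them lay at starts of non-coding RNA genes. RefSeq's promoter table placed 20 protein-coding starts in 6 of the 10 clusters, and 16 of the 20 genes had a shared region at the start. The stretches were admitted for their open starts, so a high share was built in. Over all starts of a stretch, 60.6% to 65.3% had a summit within 500 bp, by list, at 0 to 5 Mb of chromosome 19. At 30 to 35 Mb of chromosome 9 the share was 67.9% to 77.4%. To show what open starts in these clusters look like, 5 of the 16 promoters are printed from RefSeq (GRCh38.p14), from 250 bases before to 50 bases after the start, 5′ to 3′ on the gene's strand. CIRBP and SCAMP4 were chosen for the strongest regions at a start, and KLF16 and IL11RA for the most and the fewest CG dinucleotides. ABHD17A was added because it held both GC boxes and ETS cores, as marked below, though no CCAAT box. Capitals mark the GC box GGGCGG, the CCAAT box CCAAT and the ETS core CCGGAA on either strand, with overlapping matches run together.
CIRBP: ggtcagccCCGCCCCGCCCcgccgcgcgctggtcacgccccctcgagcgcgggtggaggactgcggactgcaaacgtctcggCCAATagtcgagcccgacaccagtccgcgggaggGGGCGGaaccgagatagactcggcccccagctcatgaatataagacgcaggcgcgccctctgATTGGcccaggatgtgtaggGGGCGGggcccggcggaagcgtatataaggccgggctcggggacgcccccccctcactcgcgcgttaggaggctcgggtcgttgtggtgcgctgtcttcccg
SCAMP4: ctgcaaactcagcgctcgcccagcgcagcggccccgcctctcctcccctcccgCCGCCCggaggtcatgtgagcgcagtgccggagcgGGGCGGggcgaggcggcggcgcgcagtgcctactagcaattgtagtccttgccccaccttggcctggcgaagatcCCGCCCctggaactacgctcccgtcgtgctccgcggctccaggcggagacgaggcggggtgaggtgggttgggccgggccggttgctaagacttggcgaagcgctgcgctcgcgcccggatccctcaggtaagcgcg
KLF16: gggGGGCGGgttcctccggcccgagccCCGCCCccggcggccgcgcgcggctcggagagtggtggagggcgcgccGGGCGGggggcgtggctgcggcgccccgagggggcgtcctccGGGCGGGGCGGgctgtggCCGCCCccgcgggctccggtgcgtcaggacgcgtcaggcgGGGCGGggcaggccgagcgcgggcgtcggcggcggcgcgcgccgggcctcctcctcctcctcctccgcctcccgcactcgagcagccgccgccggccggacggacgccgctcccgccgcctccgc
ABHD17A: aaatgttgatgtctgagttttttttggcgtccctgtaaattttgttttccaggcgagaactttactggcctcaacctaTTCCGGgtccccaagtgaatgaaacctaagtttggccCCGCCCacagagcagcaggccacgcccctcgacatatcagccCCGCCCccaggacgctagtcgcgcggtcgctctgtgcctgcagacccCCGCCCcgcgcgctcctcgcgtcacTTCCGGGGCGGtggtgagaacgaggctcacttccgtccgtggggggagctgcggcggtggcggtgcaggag
IL11RA: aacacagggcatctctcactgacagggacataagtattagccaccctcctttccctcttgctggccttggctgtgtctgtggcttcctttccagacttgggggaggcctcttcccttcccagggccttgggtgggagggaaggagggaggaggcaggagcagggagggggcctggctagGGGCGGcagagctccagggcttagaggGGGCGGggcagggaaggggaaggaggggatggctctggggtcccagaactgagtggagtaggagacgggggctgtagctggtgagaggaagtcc

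All 16 promoters held the GC box, the letters bound by SP and KLF family factors, against 45.0% of 34683 promoters of the same length. SCAMP4 and ADAT3 share 1 start and 1 sequence, so these were 15 distinct sequences. KLF16, which encodes a zinc finger factor of the KLF family, had 7 matches in its promoter, the most among the 16. The CCAAT box was found in 5 of the 16, against 34.6% of all promoters. The ETS core was found in 4 of the 16, against 17.2%. The G and C content ran from 52.7% to 86.0%, where the median of all promoters was 58.7%, and the number of CG dinucleotides from 3 in IL11RA to 56 in KLF16, where the median was 14. These matches describe letters in a window around protein-coding starts that were chosen for being open, and they show no binding. The 34683 promoters were not chosen for being open, and they include those of non-coding RNA genes. Differences from them therefore do not single out the clusters.

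The richest linked cluster, chr9:34591508-34675450, held 12 shared regions over 83.9 kb and 7 of the protein-coding starts. Shared regions lay at the starts of RPP25L, which encodes a protein related to a subunit of RNase P, DCTN3, a subunit of the dynactin motor complex, ARID3C, a DNA-binding protein, GALT, an enzyme of galactose breakdown, IL11RA, a cytokine receptor subunit, and LOC730098. The start of the chemokine gene CCL27 had none. The level at the GALT start was 2.00, 2.07 and 2.03 in the 3 controls, and the chimera libraries had 1.79, 1.77 and 1.57. The groups did not overlap there, but the difference of -0.25 ± 0.14 (SE) on the log2 scale did not pass the limma test (adjusted p = 0.377). At the IL11RA start the levels were 1.00, 1.20 and 0.985 in the controls and 0.708, 0.563 and 0.929 in the chimera libraries, a difference of -0.56 ± 0.21 with a limma adjusted p of 0.141. The cluster as a whole summed to 18.5 ± 0.882 (SD, n = 3) in the controls and 17.4 ± 0.966 in the chimera libraries, and did not pass the test (limma adjusted p = 0.404).

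A cluster of 10 regions at chr19:1241467-1280030 held 3 starts, each with a region. The strongest of its regions, with a mean level of 2.96, lay at the start of CIRBP, which encodes a cold-inducible RNA-binding protein. Its levels were 2.63, 2.93 and 3.02 in the controls and 3.38, 3.40 and 2.41 in the chimera libraries, so the groups overlapped. The other starts belonged to MIDN, a nuclear protein gene, at a mean level of 1.70, and to FAM174C, at 1.96. A second chromosome 19 cluster, chr19:1826020-1905970, held 11 regions, 4 of them at starts. Its strongest region, at 2.74, covered the shared start of SCAMP4, a membrane trafficking gene, and ADAT3, a subunit of a tRNA deaminase. Regions at the starts of REXO1, an RNA exonuclease gene, KLF16 and ABHD17A, a depalmitoylase gene, had mean levels of 1.53, 1.59 and 0.889. This cluster came nearest to the threshold on the higher side among the 10 linked clusters. Its sums were 15.1, 16.2 and 15.8 in the controls and 16.4, 17.4 and 18.96 in the chimera libraries (log2 difference 0.16 ± 0.052, limma adjusted p = 0.0753).

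The remaining linked clusters carried few starts. One at chr19:843062-918142 had a region at the start of MED16, a subunit of the Mediator complex, and none at the starts of CFD, the complement factor D gene, or R3HDM4. One at chr19:2019573-2070034 had a region at the start of MKNK2, a kinase gene of the translation initiation pathway, with levels of 1.098, 1.07 and 1.29 in the controls and 1.31, 1.33 and 1.63 in the chimera libraries. The start of SLC22A23, a solute carrier gene, lay in a cluster on chromosome 6 without a region of its own. The other 4 linked clusters had no protein-coding start in the table. One of these, chr5:42982073-43020901, had regions at the starts of the non-coding RNA genes LOC105374746, LOC105374748 and ANXA2R-OT1. None of the 10 linked clusters passed the test between groups, with limma adjusted p-values from 0.0753 to 0.994.

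Regions at a start had higher medians than the others of the same clusters, in level and in width. Over the 98 regions, the median level was 1.65 at starts and 1.30 elsewhere, and the median width 1103 bp against 646 bp. The share of regions at a start was 16.3% in the dense clusters, 20.2% in chains of 2 to 7 regions and 24.6% among regions that stood alone, over the same 18 stretches. With 10 clusters in few stretches these shares are a description of those places and not of all 347 clusters.

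The clusters spanned 20.5 to 135 kb, with a median of 53.0 kb and a total of 19.6 Mb. Most were near the minimum size, since 110 held exactly 8 regions and 237 held 8 to 10, while 29 held 15 or more. The regions themselves covered a median of 13.7% of a span, from 8.61% to 33.0%. The gap between neighbours had a median of 5.01 kb, with quartiles of 2.20 and 8.06 kb over 3208 gaps. Gaps under 1 kb numbered 465 and gaps over 10 kb numbered 389. The regions in clusters were not wide, with a median width of 704 bp against 786 bp for regions that stood alone. Regions of at least 2 kb made up 0.309% of the members' regions and 0.535% of all shared regions. On either side of the threshold, the 192 chains of 7 regions had a median span of 37.6 kb, 1.86 regions per 10 kb and a median region level of 1.26, and the 110 clusters of 8 had 45.1 kb, 1.77 and 1.31.

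The clusters were unevenly spread over the chromosomes. Chromosome 1 held 49, chromosome 17 held 36, chromosome 11 held 28 and chromosome 16 held 23. Relative to the shared regions of each chromosome, clusters took in 13.5% on chromosome 17, 11.5% on chromosome 16 and 10.7% on chromosome 22. The lowest shares were 1.57% on chromosome 18 and 2.43% on chromosome 13. In 27 cases the next cluster began within 50 kb of the last, the closest 12.6 kb away, so some long stretches were split by a gap just over the limit.

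**Figure D1:**
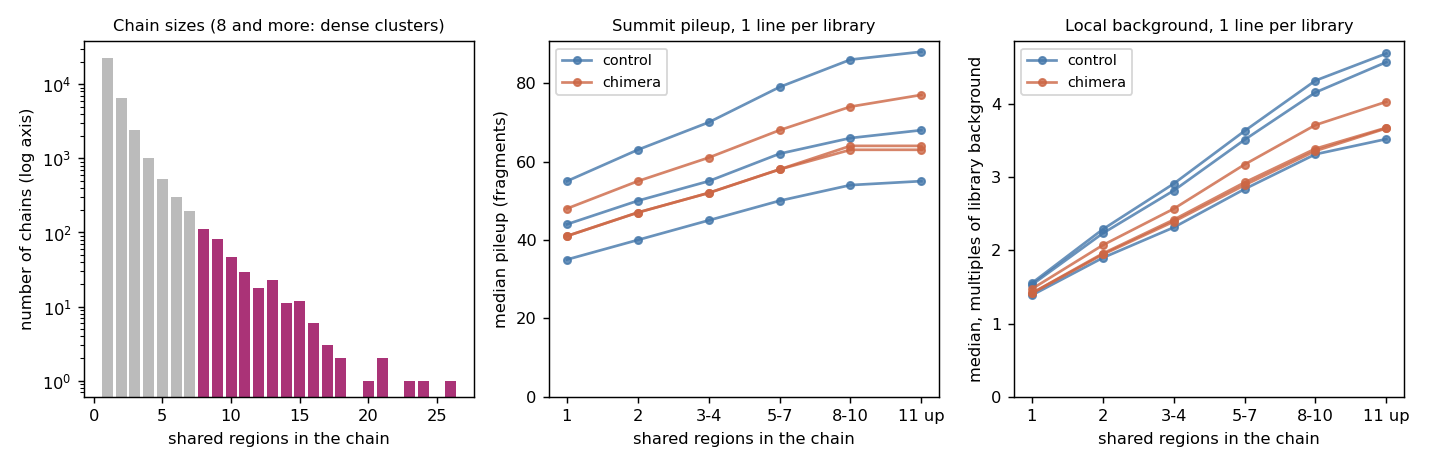
Left, number of chains (log axis) by the number of shared regions they hold, with the 347 dense clusters of 8 or more coloured. Middle and right, the median summit pileup in fragments and the median local background in multiples of the library background, each by chain size with 1 line per library; both rose with chain size in all 6 libraries.

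Regions in dense clusters carried more signal than regions alone. Their median level was 1.33, with quartiles of 0.954 and 1.87, against 0.847 for the 22961 regions that stood alone. In fragments, the median summit pileup in the clusters was 67, 55 and 87 in control replicates 1, 2 and 3 and 63, 64 and 75 in the chimera replicates. For lone regions it was 44, 35 and 55, and 41, 41 and 48. Every library showed the same order. The local background beside the peaks was also higher in clusters, at 3.39 to 4.47 times the library background against 1.39 to 1.55 times for lone regions. The authors' fold, which divides the pileup by that background, ran the other way, at 5.01 to 5.97 in clusters and 7.08 to 9.50 for lone regions. MACS2, the program whose peak format the lists use, can take its background from a window that includes neighbouring open regions. Where such a window is used, a cluster region of a given pileup receives a lower fold and a weaker p than a lone one. The settings used are not given, and the part of the window in these folds was not tested.

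Signal was shared among the regions of a cluster. The strongest region supplied a median of 18.7% of the summed level, from 7.10% to 53.0%, and had a median of 1.94 times the middle region of its cluster. It exceeded 40% in 1 cluster, on chromosome 15, where the region chr15:20561743-20563951 reached 10.6 times the library median, the highest level of all members. That region held 10.9, 9.56 and 10.4 in the controls and 10.7, 10.8 and 11.1 in the chimera libraries. The strongest region lay at an end of the cluster in 93 of 347 clusters, or 26.8%. End positions made up 19.5% of regions when all clusters were pooled. Ends are a larger part of small clusters, which were most of the 347, so these shares are not directly comparable. The median level was 1.28 at the ends and 1.34 inside.

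The cluster with most shared regions was chr17:7997196-8130448, with 26 regions over 133 kb. The weakest of its regions had a mean level of 0.630 in controls and 0.587 in the chimera libraries. The strongest, chr17:8089798-8091413, had means of 5.64 and 5.24. A tight group of 4 regions lay between 24.9 and 26.2 kb from its first base, with levels of 2.48 to 4.17 over the 6 libraries. The summed level was 64.9, 63.1 and 62.3 in the controls and 59.4, 61.4 and 58.4 in the chimera libraries. The 3 chimera sums all lay below the 3 control sums, 21 of 26 regions were lower, and the cluster did not pass the test (log2 difference -0.09 ± 0.031, limma adjusted p = 0.117). Within it, the region chr17:8003123-8003869 went the other way and passed on its own, from 0.608, 0.951 and 0.892 to 1.29, 1.21 and 1.30 (0.66 ± 0.19, limma adjusted p = 0.0402).

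Of the 10 clusters with most regions, holding 17 to 26 each, chr16:49525555-49627617 alone passed the test between groups. The next in size after the chromosome 17 cluster were chr6:33711978-33830040 with 24 regions, chr16:85384547-85519486 with 23, and chr17:17584435-17703531 and chr3:193741255-193860146 with 21 each. Their log2 differences were 0.08 ± 0.039, -0.0025 ± 0.036, -0.09 ± 0.047 and -0.06 ± 0.036, with limma adjusted p-values of 0.297, 0.985, 0.344 and 0.416. The others were chr11:746435-860460 with 20 regions, chr22:42689987-42796168 with 18, and chr17:16283694-16390493 and chr15:74189746-74287557 with 17 each, which differed by 0.05, -0.06, -0.02 and 0.07 (limma adjusted p of 0.632, 0.483, 0.868 and 0.493).

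The densest cluster was chr22:46390751-46411255, with 9 regions in 20.5 kb, or 4.39 per 10 kb against a median of 1.81 over all clusters. It also had the highest median region level, 3.01, and its regions covered 33.0% of the span. Its sums were 28.7, 29.2 and 29.3 in the controls and 25.8, 26.4 and 25.5 in the chimera libraries, and the groups did not overlap (-0.17 ± 0.041, limma adjusted p = 0.0102). Of its 9 regions, chr22:46396606-46398321 moved most, from 4.63, 4.46 and 5.11 to 2.67, 3.58 and 2.77 (-0.67 ± 0.10, limma adjusted p = 3.02e-05), while the other 8 region means lay between 1.76 and 4.18 in controls and between 1.67 and 4.10 in the chimera libraries. The other clusters among the 5 densest were chr22:36591059-36618221, chr14:105937054-105958336, chr6:28757389-28785786 and chr3:52250994-52280533, at 4.05, 3.76, 3.52 and 3.39 regions per 10 kb. Their limma adjusted p-values were 0.396, 0.447, 0.116 and 0.102.

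**Figure D2:**
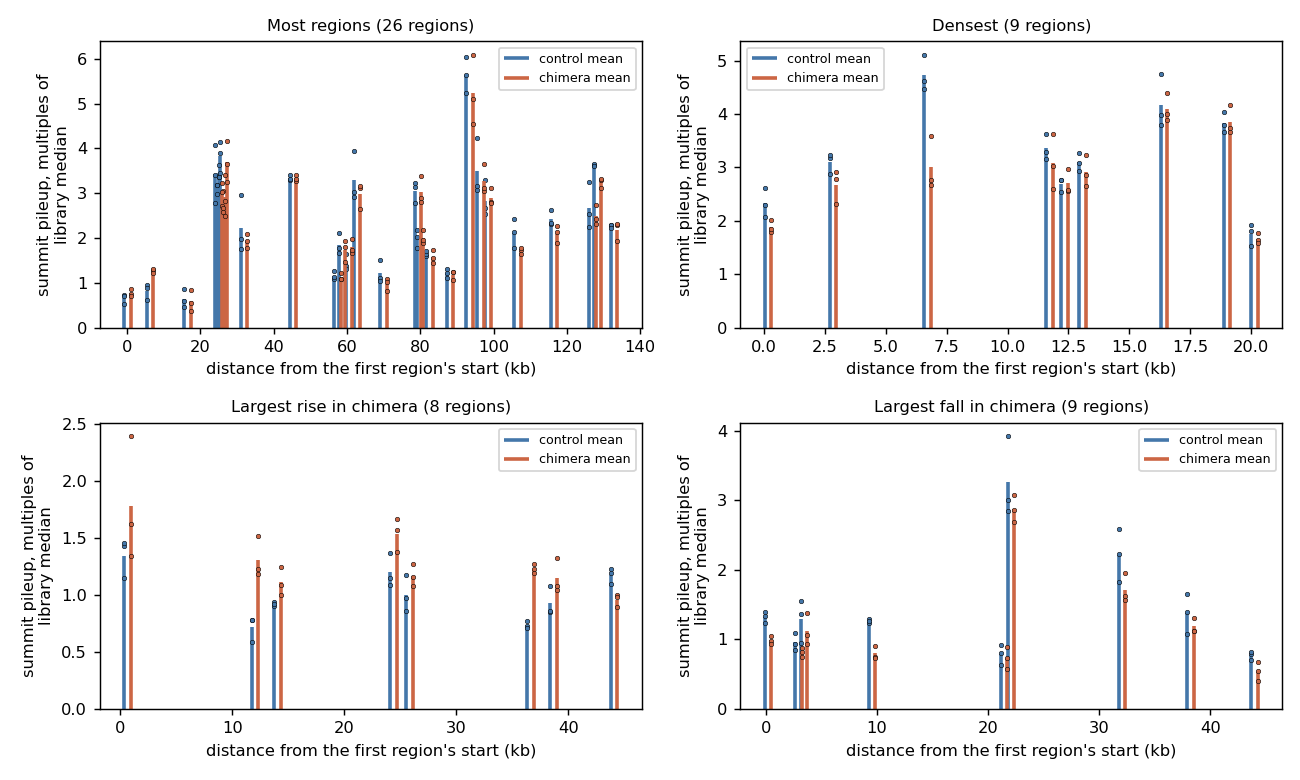
Summit pileup in multiples of the library median (vertical axis) along 4 clusters, by distance from the first region's start in kb: the cluster with most regions, the densest, and those with the largest rise and the largest fall in the chimera libraries. Bars are group means and points the 3 libraries of each group; in the densest cluster 1 of the 9 regions fell most, while in the clusters with the largest rise and fall 7 of 8 and 9 of 9 regions moved the same way.

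Between the groups, the clusters as a whole moved little. Over the 347 clusters the median log2 difference, chimera minus control, was -0.0060, beside -0.0062 over all 34286 chains. It ranged from -0.30 to 0.35 with an SD of 0.0901. In 298 of 347 clusters the summed level in the chimera libraries was within 10% of that in the controls. Differences in the same measure between 2 libraries of 1 group had an SD of 0.0809 to 0.0969 over the clusters, and between libraries of different groups 0.109 to 0.124.

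In the limma fit over all chains, with Benjamini-Hochberg adjustment, 6 clusters rose and 11 fell at an adjusted p under 0.05. These were 1.73% and 3.17% of the clusters, where 1.43% of all chains rose and 1.29% fell. When the log2 levels of a cluster's regions were averaged in place of summed, 0 rose and 0 fell by limma (2 and 3 at an unadjusted p under 0.05). All 6 rises and 11 falls kept their sign there, and the clusters described next as the largest rise and fall differed by 0.36 and -0.32. The share called in either direction grew with chain size, from 2.36% of lone regions through 3.14%, 3.67% and 4.31% in chains of 2, of 3 to 4 and of 5 to 7, to 4.899% of dense clusters. The median SE of the difference fell over the same classes from 0.211 to 0.0541, and the SD of the differences from 0.292 to 0.0901. A sum over many regions was thus measured more precisely, and the part of this in the shares called was not tested.

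**Figure D3:**
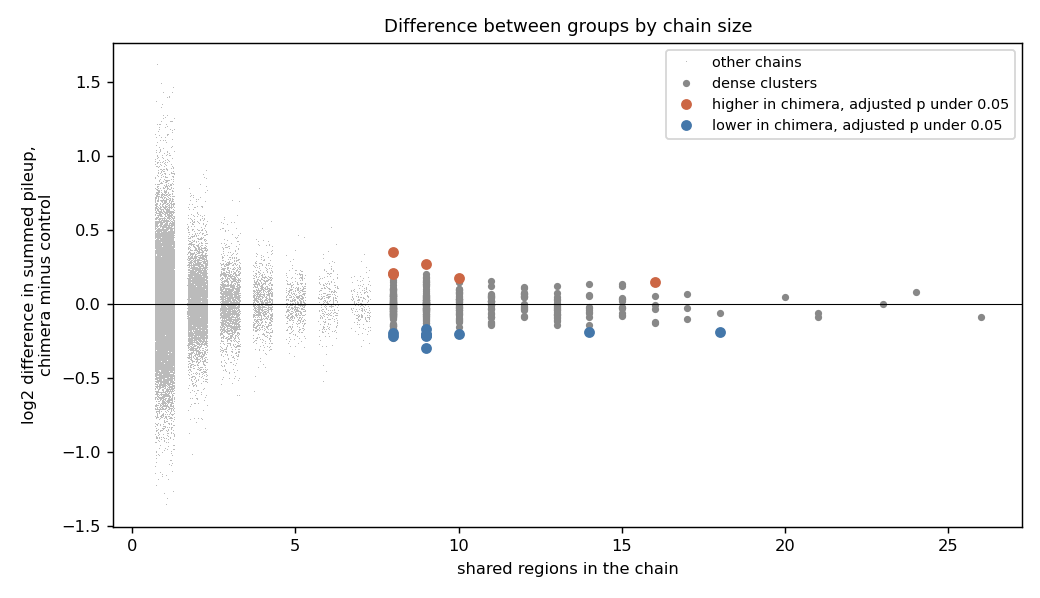
Log2 difference in summed pileup, chimera minus control, by the number of shared regions in the chain. Small points are chains of fewer than 8 regions and large points the 347 dense clusters, with the 6 higher and 11 lower clusters past a limma adjusted p of 0.05 in colour; the spread narrowed as chains grew.

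The largest rise was at chr9:101256916-101301545, a cluster of 8 regions over 44.6 kb. Its sums were 8.61, 7.71 and 7.78 in the controls and 10.02, 10.7 and 10.1 in the chimera libraries. Every chimera library stood above every control, at 128% of the control mean (0.35 ± 0.065, limma adjusted p = 0.000269). The rise was found in 7 of 8 regions. Those that passed on their own were chr9:101268559-101269322, from 0.784, 0.780 and 0.585 to 1.19, 1.23 and 1.52, and chr9:101293165-101293921, from 0.725, 0.707 and 0.769 to 1.23, 1.27 and 1.20. The last region of the cluster was lower, with means of 1.17 and 0.957. A short region inside the span, chr9:101294470-101294692, had a peak in all 3 controls and in no chimera library.

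The cluster chr2:208174644-208218461, with 9 regions, rose from 13.2, 13.4 and 13.02 to 15.8, 16.1 and 15.96 (0.27 ± 0.053, limma adjusted p = 0.00061). The libraries of each group lay close together and the groups were well apart. Among the regions that passed on their own, chr2:208202288-208202958 went from 1.78, 1.71 and 1.97 to 2.44, 2.92 and 2.82. The other, chr2:208176072-208176621, went from 1.63, 2.02 and 1.94 to 2.83, 2.73 and 2.34. The strongest region, chr2:208174644-208175772, rose less, with means of 2.86 and 3.28. The 2 regions at its far end had similar means in both groups, 1.63 against 1.59 and 0.717 against 0.690.

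Smaller rises were seen at chr9:134248215-134299278, where 8 of 8 regions were higher (0.21 ± 0.059, limma adjusted p = 0.0303), at chr15:68846385-68878873 (0.20 ± 0.061, 0.0469) and at chr11:2906201-2952325 (0.18 ± 0.051, 0.0332). Their sums were 116%, 115% and 113% of the control mean. The sixth was chr1:181053415-181122856, with 16 regions, at 111%. The calls of the chromosome 9 cluster with the largest rise and of the chromosome 2 cluster held whichever of the 6 libraries was left out, with limma adjusted p-values up to 0.00853 and 0.0103. The call at chr11:2906201-2952325 held in 0 of these 6 runs (adjusted p from 0.0561 to 0.112), that at chr15:68846385-68878873 in 1 (0.0363 to 0.282) and that at chr9:134248215-134299278 in 2 (0.0333 to 0.175).

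The largest fall was at chr6:28693734-28738081, with 9 regions over 44.3 kb. The sums were 13.1, 12.5 and 14.1 in the controls and 11.1, 10.4 and 10.8 in the chimera libraries, or 81.4% of the control mean (-0.30 ± 0.058, limma adjusted p = 0.000718). All 9 regions had a lower mean, and chr6:28702800-28703708 passed on its own, from 1.24, 1.29 and 1.26 to 0.750, 0.729 and 0.911. This fall reached beyond the cluster. Of the 86 shared regions within 1 Mb outside it, 75 were also lower, with a median difference of -0.20. The neighbouring cluster chr6:28757389-28785786, which is 1 of the 5 densest, fell short of the threshold (sums of 16.4, 14.9 and 14.8 against 13.4, 14.6 and 13.4, -0.15 ± 0.054, limma adjusted p = 0.116). Another cluster on the same chromosome, chr6:26520681-26557319, fell from 16.6, 15.4 and 15.6 to 13.5, 13.7 and 13.8 (-0.21 ± 0.053, limma adjusted p = 0.0104), with 65 of 91 flanking regions lower and a flanking median of -0.12.

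In the next falls by size the flanking regions did not lean the same way. At chr14:101213309-101255588 the sums went from 13.8, 13.6 and 14.1 to 13.2, 11.5 and 11.2 (-0.22 ± 0.058, limma adjusted p = 0.0205), with a flanking median of 0.03. At chr13:100497267-100524074 they went from 11.6, 12.98 and 12.6 to 10.04, 11.4 and 10.7 (-0.21 ± 0.060, 0.0302), with 0.03. At chr6:137722543-137754102 they went from 12.96, 13.3 and 12.6 to 11.6, 11.6 and 10.5 (-0.21 ± 0.058, 0.0262), with 0.07. In the last 2 clusters all 9 regions had a lower mean. The cluster of 18 regions at chr16:49525555-49627617 went from sums of 33.8, 33.2 and 33.3 to 28.7, 29.4 and 29.9 (-0.19 ± 0.039, limma adjusted p = 0.00174), with a flanking median of 0.06. There 15 of 18 regions were lower, and chr16:49548255-49548744 moved most, from 1.37, 1.66 and 1.35 to 0.729, 0.854 and 1.00. The calls at chr6:28693734-28738081 and chr16:49525555-49627617 held in all 6 runs with a library left out (adjusted p up to 0.0347 and 0.0214). Those at chr6:26520681-26557319 and chr22:46390751-46411255 held in 5, and those on chromosomes 13 and 14 and at chr6:137722543-137754102 in 2 each, with limma adjusted p-values up to 0.205, 0.161 and 0.184. The remaining falls were on chromosomes 12, 15, 17 and 20, at 86.8% to 87.9% of the control mean, with limma adjusted p-values of 0.0192 to 0.0488. Of these, the chromosome 15 cluster, chr15:99943596-100027652, had a flanking median of -0.10, with 34 of 56 flanking regions lower. Over the 11 falls the flanking median was below 0 in 5, from -0.20 to 0.07.

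**Figure D4:**
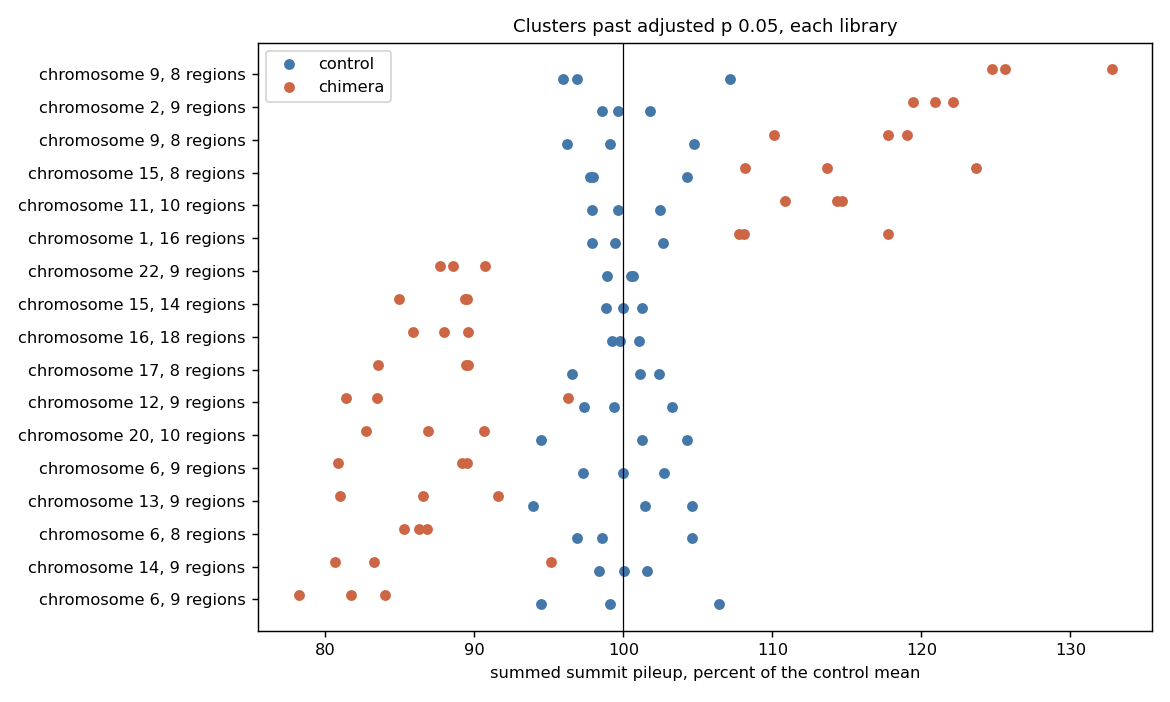
Summed summit pileup of each called cluster in each library, as a percent of the control mean (vertical line at 100). Rows are the 6 clusters that rose and the 11 that fell, ordered by the difference. Blue points are the 3 control and red points the 3 chimera libraries. The groups did not overlap in any row, but the rows were picked by the test on these same sums.

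The 11 falls depended on the scale. In all 11, the local background beside the peaks was lower in the chimera libraries as well, with a median log2 difference of -0.22. On the authors' fold, which divides by that background, the same clusters had a median difference of 0.015, lower in 4 and higher in 7, and 0 of the 347 clusters fell by limma (2 at an unadjusted p under 0.05). The largest fall kept a log2 fold difference of -0.19. For the 6 rises the background was higher in 5 and the fold was higher in 6 of 6, with a median of 0.16, but again 0 of 347 clusters rose on the fold (21 at an unadjusted p under 0.05). Only 7 of all 34286 chains rose and 7 fell on that scale. Over the 347 clusters the difference in summed pileup and that in background had a Pearson correlation of 0.737. Both come from the same fragments, and a cluster's own regions can lie in the background window, so the correlation is a description. The part of the background in these falls was not tested.

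**Figure D5:**
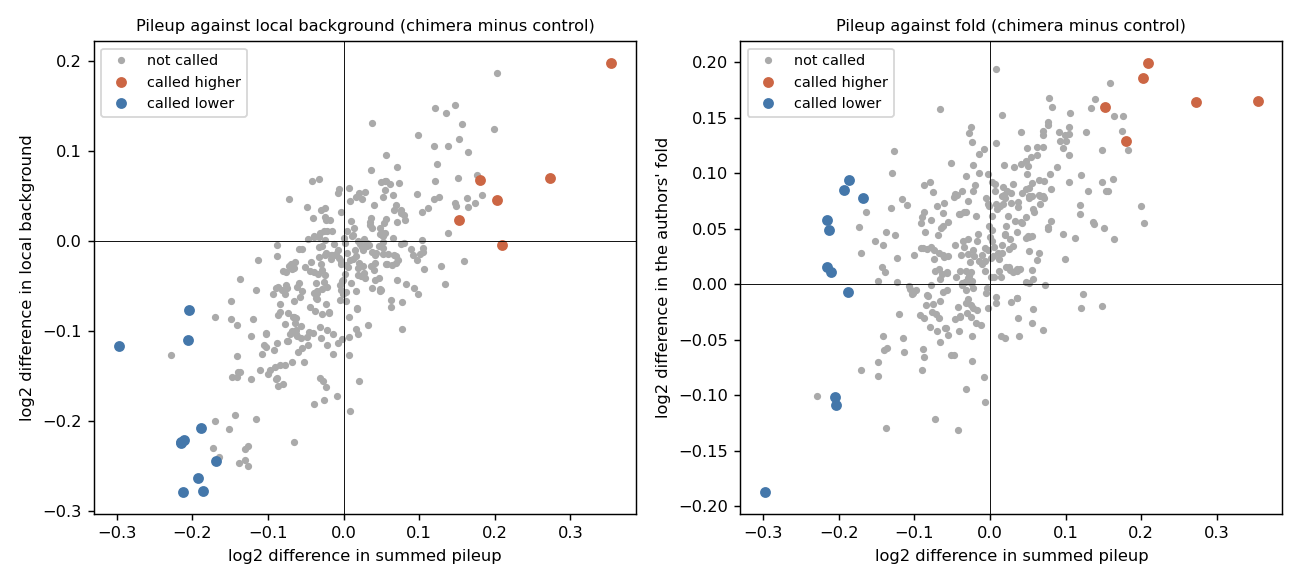
Log2 difference between chimera and control in local background (left) and in the authors' fold (right) against the difference in summed pileup, with 1 point per dense cluster. The 11 clusters called lower (blue) all lay below 0 for background, while 7 of them lay above 0 for fold; the 6 called higher (red) all lay above 0 for fold.

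Single regions inside the clusters were tested in the same way, with a median SE of 0.165 against 0.0541 for the sums. In the limma fit over all 56679 shared regions, 39 of the members' 3555 regions rose and 40 fell at an adjusted p under 0.05. These were 1.097% and 1.13%, against 1.28% and 1.17% of all shared regions, so the members' shares were near the background. The called regions fell into 70 clusters, 8 of which held more than 1. Only 13 of them lay in a cluster that passed as a whole, and 66 lay in clusters that did not. The size of the called changes ran from 0.37 upward on the log2 scale, to 1.04 for the largest rise and -1.53 for the largest fall.

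The largest fall and the 2 largest rises were picked for their size. The largest fall was at chr17:17671757-17672333, in the chromosome 17 cluster of 21 regions. Its levels were 1.24, 1.15 and 1.45 in the controls and 0.417, 0.479 and 0.429 in the chimera libraries (-1.53 ± 0.21, limma adjusted p = 4.67e-06), while the sum of that cluster differed by -0.09. The largest rise was at chr5:73690411-73691317, from 0.431, 0.366 and 0.323 to 1.00, 0.604 and 0.732 (1.04 ± 0.24, limma adjusted p = 0.00819). At chr11:44964720-44965635 the levels went from 1.45, 1.27 and 1.35 to 2.75, 2.23 and 2.70 (0.91 ± 0.14, limma adjusted p = 1.9e-05), and a further region of the same cluster rose as well.

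Opposite changes could lie close together. In the cluster of 23 regions at chr16:85384547-85519486, chr16:85424331-85424841 fell from 1.82, 1.63 and 1.82 to 0.938, 0.708 and 0.857 (limma adjusted p = 3.51e-05). Its neighbour chr16:85418147-85419593 rose from 1.20, 1.39 and 1.57 to 2.13, 1.96 and 2.18 (limma adjusted p = 0.0101), and the sums of the cluster were alike, at 41.2 ± 0.675 and 41.2 ± 1.41 (SD, n = 3). Such clusters with called regions in both directions numbered 3, and the share over other chains is not given here. A second was chr5:139104366-139167953, where regions starting at 139104366 and 139112926 fell and 1 starting at 139118370 rose. In 340 of 347 clusters some regions were higher and others lower, and in 7 all regions leaned the same way. The differences of adjacent regions in a cluster had a Pearson correlation of 0.0921 over 3208 pairs. The same correlation for differences between 2 libraries of 1 group was 0.0008 to 0.0485. The pairs share libraries and clusters, so these values are descriptions.

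The cluster spans also held 1653 regions with a peak in 1 to 5 libraries, a median of 4 per cluster and at most 16. In 12 clusters there was none. They were 1.78% of the 93086 such regions, and 68.3% of all merged regions inside the spans were shared. Their number per 100 kb of span grew from 4.85 in chains of 2 regions to 8.43 in dense clusters. Of those in the clusters, 37.8% had a peak in 1 library only, against 47.7% of all.

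Regions called in all 3 chimera libraries and in no control numbered 18 in the spans, and regions called in all 3 controls and no chimera library 39. These were 1.09% and 2.36% of the 1653, beside 0.999% and 1.29% of all regions called in 1 to 5 libraries. The larger share of lost regions was not particular to dense clusters. Chains of 5 to 7 regions held 24 gained and 53 lost among 2040 such regions in their spans. Those of exactly 7 held 3 and 15 among 522. In the dense clusters, the gained regions were spread over 17 clusters and the lost ones over 38, with 2 clusters holding both. At a −log10 q of at least 10 in each library with the region, 2 gained and 7 lost regions were left. The most significant gained region, chrX:153192216-153192538, had summit pileups of 88, 92 and 123 fragments in the chimera libraries. The most significant lost region, chr1:41861767-41862267, had 58, 52 and 62 in the controls. The lost region chr11:65260099-65260342 had 78, 73 and 92. Next in significance was chr9:134297759-134298205, with 44, 41 and 53. It lay in the chromosome 9 cluster with the smaller rise, where every shared region had a higher mean in the chimera libraries. It ended just before a shared region of that cluster, chr9:134298424-134299278. Whether neighbouring peaks were split differently between libraries was not tested. After merging within 1 kb, gained and lost regions in the spans numbered 4 and 14. The lost region chr6:28779721-28779994, in the dense chromosome 6 cluster beside the largest fall, had 46, 48 and 58. A library without a peak can still have held signal under its calling threshold, which was not measured here. With a library left out, fewer libraries must carry or lack a peak, and the counts grew, to 25 to 46 gained and 50 to 115 lost, the last without control replicate 2, whose list was the shortest.

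The share of a library's peaks lying in the cluster spans differed by less than the spread between libraries. It was 4.71%, 5.25% and 4.503% in the controls and 4.79%, 4.63% and 4.71% in the chimera libraries. The means were 4.82% ± 0.388 and 4.71% ± 0.0795 (SD, n = 3), with a two-sided exact permutation p of 0.9, where 3 against 3 libraries cannot go below 0.1. The highest share belonged to control replicate 2, which had the fewest peaks. The rule gave every library a peak in each of the 3555 shared regions of the clusters. Of the 4503 to 4923 peaks of a library in the spans, at least 3555 were therefore fixed in advance. The share of the spans covered by peaks was 12.1% ± 1.41 in the controls and 11.7% ± 0.328 in the chimera libraries (n = 3, exact permutation p = 0.7). Peaks in the spans numbered 4730 ± 212 and 4600 ± 86.4 (n = 3, exact permutation p = 0.5). These tests draw largely on the peak presence that the rule used, so no conclusion about the groups is drawn from them.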

How the data were processed

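ATAC-seq peak lists of 6 libraries (3 control, 3 chimera) in narrowPeak form were analysed, with groups and replicate numbers from the labels. The submitters' processing notes name HOMER 4.9 and GRCh38 without a role. The sources used here do not give the aligner, the read filters, a transposase shift or MACS2's version and settings. The deposited values of each peak were the authors' fold, a ratio of summit pileup to local background, and −log10 p and −log10 q, within a library. Peaks were called per library, 1 list each.

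Summit pileup and local background were solved for each peak from the authors' 2 values with the Poisson test of MACS2, and for 100% of peaks the −log10 p came back to within 0.005. The recovered library background was 2.53 to 3.77 fragments and the lowest summit pileup 9 to 12. These stand in for depth if the settings were the same in each library. They give no counting interval for a region.

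The strongest peak of each library in a shared region was used. Pileups were divided by the library's median over shared regions, summed per chain, and log2 values were fitted with limma 3.58.1 (R 4.3.3, trend) on all chains and all shared regions, with Benjamini-Hochberg adjustment at 0.05. Values per library were compared by two-sided exact permutation tests (Python 3.11.15, scipy 1.17.1). The fits were tested on simulated data. Peaks on other sequences, 0.0168% of all, were left out.

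Clusters named in the text were the 10 with most regions, the 5 densest, and the 5 with the largest change in each direction among those past the threshold. Single regions outside these, and the remaining called clusters, were named after their values were seen. The members, lists and tests were chosen with earlier results of these data known. Gene starts and promoter sequences came from RefSeq tables on GRCh38.p14, and all 30 gene symbols linked to a cluster had a promoter entry. Alternatives covered the scale, weak peaks, gaps, merging, the replicate number as a block, and each library left out.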

Additional observations from a re-analysis of the deposited data

How the results depend on the processing

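With the authors' fold, 0 clusters rose and 0 fell, and 0 regions rose and 1 fell. In limma at an unadjusted p under 0.05, the fold gave 21 clusters higher and 2 lower, and 196 regions higher and 90 lower. With the mean of the log2 pileups, 0 clusters rose and 0 fell (2 and 3 unadjusted), beside 133 and 87 of all chains. In that fit the modelled spread depends on the mean level and not on the number of regions. Regions with a −log10 q of at least 10 gave 3 clusters higher and 7 lower, and 23 regions higher and 22 lower. Over all chains this setting gave 238 higher and 246 lower, and over all shared regions 337 and 355. Without each cluster's strongest region, chosen after seeing the data, 12 clusters rose and 13 fell, beside 251 and 254 of all chains. With a library left out, 2 to 5 clusters rose, 3 to 8 fell, 13 to 28 regions rose and 15 to 28 fell. Over all chains the same runs gave 253 to 438 higher and 200 to 296 lower. All 6 rises and all 11 falls kept their sign in these runs, in quantile normalization and in the mean.

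A gap of 10000 bp gave 173 clusters with 1685 regions, and 15000 bp gave 521 with 5620. Dropping peaks with a −log10 q under 10 gave 86 clusters with 813 regions. With a library left out there were 360 to 424 clusters with 3701 to 4495 regions.

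The difference in the share of peaks in the spans, which the rule fixed in large part, was −0.111 percentage points. It became 0.144 when weaker peaks (−log10 q under 10) were dropped (exact permutation p = 0.6). With a library left out it ran from −0.270 to 0.105, above 0 only without control replicate 2. Gained and lost regions numbered 2 and 7 at a −log10 q of at least 10, 69 and 157 when 2 of 3 libraries sufficed, and 4 and 14 after merging within 1 kb. With a library left out, an alternative added after seeing the data, they numbered 25 to 46 and 50 to 115.

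Under the fold, called clusters named in the text changed sign at chr13:100497267-100524074 (0.049), chr14:101213309-101255588 (0.015), chr22:46390751-46411255 (0.078), chr6:137722543-137754102 (0.011) and chr6:26520681-26557319 (0.058). Named clusters that were not called also changed sign at chr17:7997196-8130448 (0.047), chr16:85384547-85519486 (0.099), chr3:193741255-193860146 (0.027) and chr6:28757389-28785786 (0.039). The cause of these changes was not tested. The cluster chr16:85384547-85519486, which differed by only -0.0025, also changed sign in other settings, such as quantile normalization (0.0033). Among all alternatives for named clusters, 5 were the sign changes of called clusters. A further 239 kept their side of the threshold, and these include the sign changes of clusters that were not called. The threshold was lost in 54 and gained in 2.

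Samples of 1 replicate number showed no shared deviation (correlations of −0.0109 to 0.0183 over clusters and −0.0114 to 0.0169 over regions). Levels were centred per library and vary widely for single regions, so this cannot show that the numbers carry no pairing. With the replicate block, 7 clusters rose and 12 fell, and 37 regions rose and 37 fell. The blocked difference in share was −0.111 (exact sign flips, p = 1). The median SE of a single region was 0.165 on the log2 scale, and the part of depth in it was not tested.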
